A study of Mus musculus with 3 samples.

Results

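The genes described here are autosomal genes whose DNA was allelically imbalanced in 1 exome library, E15.10, and balanced in both others. They were chosen by the measured allelic imbalance (AI), the maternal share of the counts of a gene: AI under 0.25 or over 0.75 in E15.10, and 0.35 to 0.65 in both E6 libraries, E6.2 and E6.43. Genes on chromosomes 1 to 19 with at least 30 allelic counts in each library entered, without processed pseudogenes. Of 18956 such genes, of 30212 listed in all, 107 met the rule (0.564%). The most deeply covered of them were *Smok2a* and *Smok2b*, adjacent kinase genes on chromosome 17, in which the maternal counts were more than 4-fold higher in E15.10 while the paternal counts as counted were near those of the other libraries. The other 105 genes were mostly thinly covered in E15.10.

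The libraries hold DNA of sorted lymphocytes from 3 recipient mice, 1 library per animal, so no value has a replicate error and none was tested. E6.2 received 50 hematopoietic stem cells (HSCs) and gave 58000 B220+IgM+ B cells. E6.43 and E15.10 received 1 HSC each and gave 250000 and 177000 CD4+CD8- thymocytes, so the donor-derived cells of each are a single clone. Donor animal 6 supplied E6.2 and E6.43, and donor animal 15 supplied E15.10. Donors were female F1 hybrids of CAST/EiJ and C57BL/6J-Ly5.2. The recipients were female F1 hybrids of CAST/EiJ and C57BL/6J-Ly5.1, and all were sublethally irradiated. Such a host keeps blood cells of its own, which carry both alleles too, and donor cells were sorted apart from them by Ly5.1 and Ly5.2. The labels place the B cells of E6.2 in the spleen and the methods in the bone marrow, and the labels give no age of single animals. Clone, donor and library cannot be told apart for a value seen in E15.10 alone.

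Allelic counts come from exome capture and are reads over a SNP between the strains. The allele of the reference strain, C57BL/6J, is called maternal and that of CAST/EiJ paternal, as the study names them. E6.2 held 19471576 allelic counts, E6.43 held 13036005 and E15.10 held 10863972, and 54.03% to 54.08% of them were maternal. The median eligible gene had 620, 418 and 320 counts in the same order. Intervals for AI are 95% Wilson intervals and cover counting error only. They are too narrow for genes, because 1 read pair can cover several SNPs.

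A diploid cell carries 1 maternal and 1 paternal copy of an autosomal gene, and DNA counts then lie near balance. Loss of one copy lowers the counts of that allele and of the gene, a gained copy raises both, and exchange of one homologue for the other changes AI and leaves the total as it was. In genes with near-identical copies, a read can also be placed at the wrong copy, and a copy that a reference genome does not hold adds counts to its relatives. For this reason the relative count was compared beside AI. It is the share of a gene in all counts of eligible genes in E15.10 over the mean of its shares in the E6 libraries, and the same was computed for each allele.

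*Smok2a* and *Smok2b* encode sperm motility kinases, a family expressed in the testis, with several members in the t complex of chromosome 17. The SNPs with most counts in E15.10 are shown because the imbalance was read at them, each with 30 bases on either side from the plus strand of GRCm38. The capital is the reference base at the SNP.
*Smok2a*, chr17:13226191-13226251, coding exon: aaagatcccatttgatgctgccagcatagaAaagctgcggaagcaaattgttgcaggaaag
*Smok2b*, chr17:13235448-13235508, coding exon: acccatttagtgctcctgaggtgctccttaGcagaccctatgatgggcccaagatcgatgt
At the SNP of *Smok2a*, E6.2 had 202 maternal and 185 paternal counts, E6.43 had 112 and 120, and E15.10 had 479 and 78. At the SNP of *Smok2b*, E6.2 had 199 and 414, E6.43 had 133 and 274, and E15.10 had 554 and 220. Scaled by library, the maternal counts at these SNPs were 4.57-fold (counting interval 3.95 to 5.27) and 4.91-fold (4.27 to 5.63) those of the E6 libraries. The paternal counts were 0.754-fold (0.587 to 0.968) and 0.941-fold (0.808 to 1.10).

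Over all 8 SNPs of *Smok2a* (chr17:13221188-13227658), AI was 0.490 (2605 counts) and 0.479 (1606) in E6.2 and E6.43, and it was 0.815 (3844, interval 0.802 to 0.826) in E15.10. For the 8 SNPs of *Smok2b* (chr17:13230257-13237184), AI was 0.394 of 2971 counts, 0.381 of 1922 and 0.759 of 4191 (0.746 to 0.771). Relative to the sum over eligible genes, *Smok2a* thus had 146 and 134 CPM (counts-per-million) in the E6 libraries and 379 in E15.10. *Smok2b* took 166 and 160 there and 413 in E15.10. Every SNP of both genes had more maternal than paternal counts in E15.10. Their AI ran from 0.702 to 0.867 in *Smok2a* and from 0.685 to 0.839 in *Smok2b*, and it was higher than in either E6 library at each SNP.

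**Figure D1:**
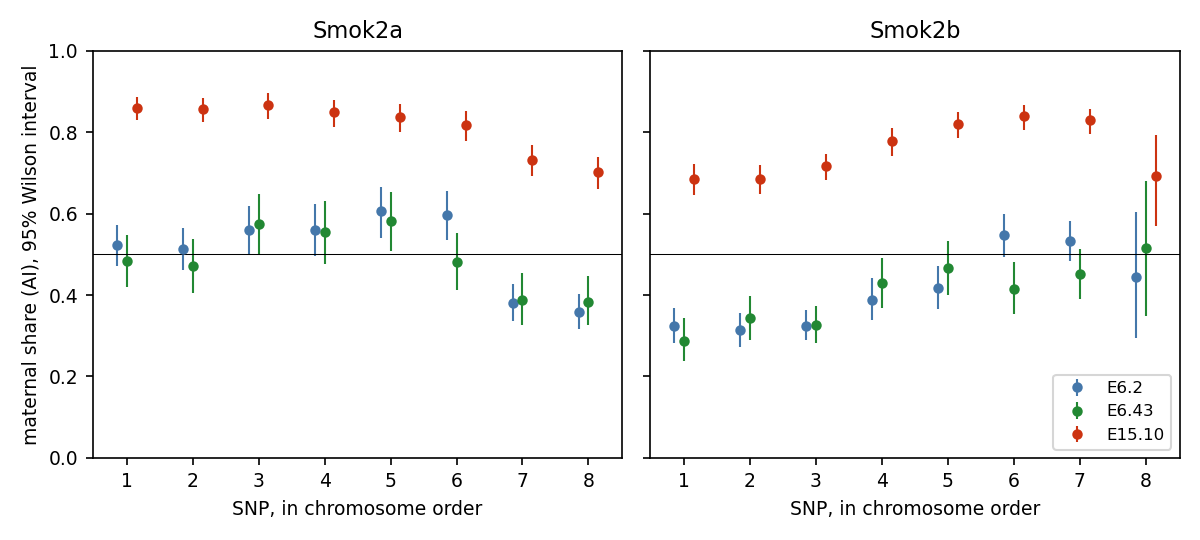
AI at each of the 8 SNPs of *Smok2a* and of *Smok2b*, in chromosome order, in the 3 libraries. Points are maternal shares and bars 95% Wilson intervals. In E15.10 all points lie at 0.685 or above, over both E6 libraries at the same SNP.

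The maternal relative count was 4.54-fold for *Smok2a* and 4.94-fold for *Smok2b*, and it ranged from 3.99 to 5.15 and from 3.80 to 5.36 over single SNPs. The paternal relative count was 0.975-fold and 0.995-fold. Summed over both genes, maternal CPM were 137 and 125 in the E6 libraries (E6.2 first) and 622 in E15.10. Paternal CPM were 175 and 169, and 170. The E6 libraries, of the same donor, differed from each other by 0.914-fold in maternal and 0.965-fold in paternal counts.

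The same direction was seen at the next captured genes. Of 24 eligible genes from 0.5 Mb below to 0.7 Mb above the lower end of *Smok2a*, 4 had maternal relative counts over 2-fold as counted, and they follow one another. With the correction for GC content given further on, 8 of the 24 did. Beside the pair, the 4 found as counted comprise *Tcp10c* and *Gm25730*. Neither met the rule, and both are named because they adjoin the pair. *Tcp10c*, a testis-expressed gene of the t complex, begins 133 kb above *Smok2a*. Its AI was already maternal, at 0.807 and 0.742 in the E6 libraries and 0.875 in E15.10, with a maternal relative count of 2.79-fold and a paternal one of 1.37-fold. *Gm25730*, 178 kb above, had 52, 41 and 102 counts at 1 SNP, with AI of 0.404, 0.659 and 0.775, and relative counts of 4.42-fold (maternal) and 1.55-fold (paternal).

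The other 20 genes had maternal relative counts of 0.630-fold to 1.92-fold, with a median of 1.04. The nearest below, *Gm23050*, begins 100.7 kb from *Smok2a* and had 0.904-fold maternal counts, and *Unc93a* had 0.994-fold. Above, *Gm16050* at 280 kb had 1.26-fold maternal and 2.28-fold paternal counts from 42 counts in E15.10. *Smok4a*, a relative of the pair at 300 kb, had AI of 0.468, 0.467 and 0.494 and relative counts of 1.46-fold and 1.31-fold. *Smok3a*, *Smok3b* and *Smok3c* on chromosome 5 had total relative counts of 1.13-fold, 0.860-fold and 0.972-fold. *Acat3*, an acetyl-CoA acetyltransferase gene 297 kb below, was the only other imbalanced gene of the rule in this window (AI 0.566, 0.506 and 0.798). Its maternal relative count was 0.907-fold and its paternal one 0.274-fold, and the eligible genes between it and *Smok2a* had AI of 0.324 to 0.678 in E15.10.

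**Figure D2:**
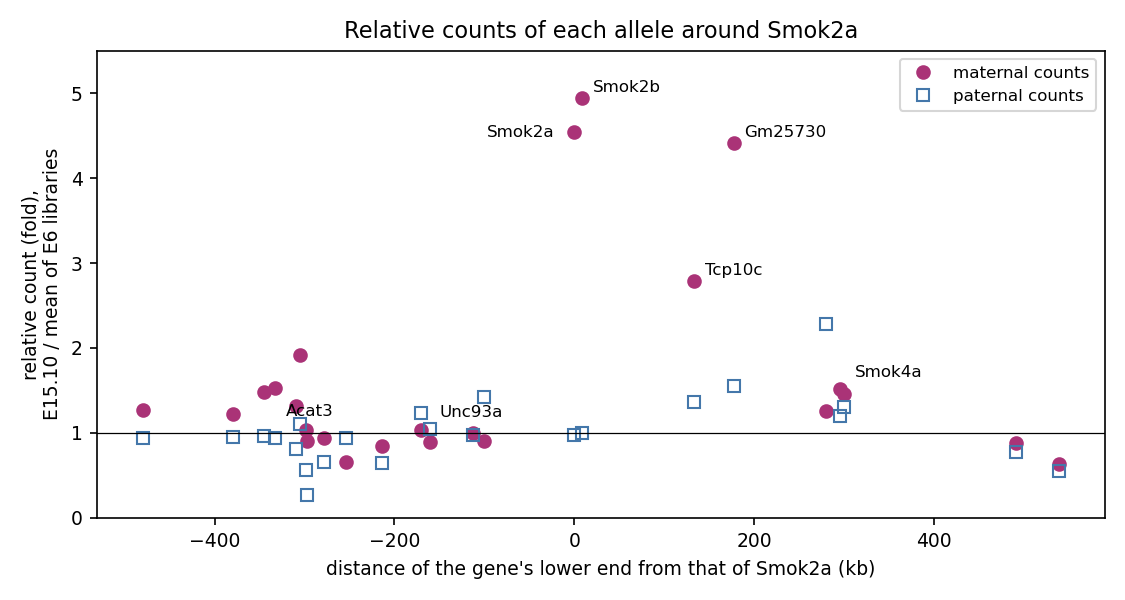
Relative counts of the maternal (filled) and paternal (open) allele, as fold of E15.10 over the mean of the E6 libraries, for the 24 eligible genes around *Smok2a*, against the distance between the lower ends of the genes. *Smok2a*, *Smok2b*, *Tcp10c* and *Gm25730* stand at 2.79-fold to 4.94-fold in maternal counts.

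Relative counts depended on GC content, which was 50.5% around the SNPs of the median eligible gene and 46.2% and 46.6% in *Smok2a* and *Smok2b*. After subtraction of the median of genes of like GC content, their maternal relative counts were 6.87-fold and 6.69-fold and their paternal ones 1.46-fold and 1.35-fold. *Gm25730* stood at 5.46-fold and *Tcp10c* at 2.46-fold in maternal counts. The other 20 genes of the window then ran from 0.470-fold to 3.20-fold, and 4 of them passed 2-fold: *Tcp1* (3.20), *Snora20* (2.57), *Gm16050* (2.18) and *Airn* (2.12). *Tcp10c* thus no longer stood apart from the rest of the window, while both *Smok2* genes and *Gm25730* were above all of it. The direction of the pair was therefore the same with and without the correction, and paternal counts within 1.5-fold of those of the E6 libraries were found in both.

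The sequences of the pair are close. The longest annotated transcripts of *Smok2a* and *Smok2b* were 93.5% identical over 1787 aligned bases, and *Smok2a* and *Smok4a* were 93.4% identical. None of the 8 SNPs of *Smok2a* had its 31 reference bases elsewhere in GRCm38. With any base allowed at the SNP, 4 of the 8 were found elsewhere. One of these is printed, with the places that share its other 30 bases, because there the copies carry another base at the very position that separates the alleles.
*Smok2a*, chr17:13226336-13226366: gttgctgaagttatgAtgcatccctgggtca
*Smok2b*, chr17:13235693-13235723: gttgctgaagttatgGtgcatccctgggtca
*Gm8603*, chr17:13517553-13517583: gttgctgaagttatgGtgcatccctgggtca
*Smok4a*, chr17:13526929-13526959: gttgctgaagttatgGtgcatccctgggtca
At this SNP E6.2 had 126 maternal and 99 paternal counts, E6.43 had 86 and 69, and E15.10 had 372 and 66. For *Smok2b*, 6 of 8 SNPs had their 31 reference bases elsewhere, all 6 with a counterpart in or beside *Smok2a* when any base was allowed. These include the SNP printed above for *Smok2b*. Its 31 bases, with the same G, also lie in *Smok2a* at chr17:13226106-13226136. Over the longest context searched, 1 SNP of *Smok2b* kept an exact match. The CAST/EiJ bases were not in the files used here, and the part of copied sequence in the imbalance was not tested.

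The 107 genes lay on 18 chromosomes. AI in E15.10 was over 0.75 in 84 of them and under 0.25 in 23. Among all 584 eligible genes in these ranges in E15.10 (3.08% of eligible genes), 426 were on the maternal side. The values nearest to the limits were, inside, *Lce3c* at 0.751, *Gm11832* at 0.753 and *Stradb* at 0.754, and *Ighv1-55* at 0.247, *Vmn2r81* at 0.245 and *Serpinb3a* at 0.244. Just outside were *4930546C10Rik*, *AI427809* and *Actr3b*, each at 0.75, *E130311K13Rik* and *Vmn2r-ps131*, both at 0.25, and *Hmga1b* at 0.253. In the E6 libraries the median AI of the 107 genes was 0.535 (E6.2) and 0.522 (E6.43), and for all eligible genes it was 0.539 in both.

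**Figure D3:**
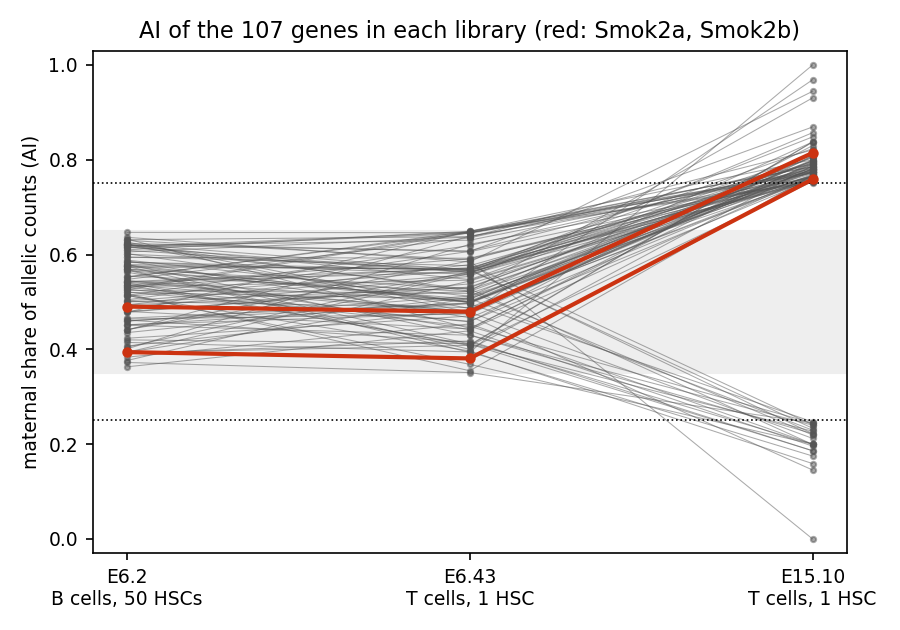
AI of the 107 genes in each library, one line per gene, with *Smok2a* and *Smok2b* in red. The grey band is 0.35 to 0.65 and the dotted lines are 0.25 and 0.75, the limits by which the genes were chosen. In E15.10, 84 genes lie above and 23 below these lines.

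The genes were thinly covered in E15.10. Their median was 386 counts for E6.2 and 249 for E6.43, and it was 77 for E15.10, where all eligible genes had 320. They made up 32 of 931 eligible genes with 30 to 49 counts in E15.10 (3.44%), 31 of 2151 with 50 to 99 (1.44%), 35 of 6009 with 100 to 299 (0.582%) and 9 of 9865 with 300 or more (0.0912%). Their counts came from a median of 5 SNPs with counts, and 9 for all eligible genes. The best-covered SNP of a gene had a median of 31 counts in E15.10 and at least 50 in 24 genes, and *Smok2a*, *Smok2b* and *Vmn2r-ps159* were the 3 with at least 100. The Wilson interval lay wholly in the imbalanced range for 17 of 107 genes. When SNPs closer than 300 bp were dropped, so that a fragment seldom covers more than 1, 80 genes kept an AI in the range in E15.10. The interval lay wholly in it for 4: *Smok2a*, *Vmn1r79*, *Tmem243* (19 counts) and ENSMUSG00000095811 (14 counts). These counts leave out balance in the E6 libraries. Of 74 genes with at least 30 such counts in each library, 48 met the whole rule. ENSMUSG00000095811 then had AI of 0.745 in E6.2, outside the balanced range. The part of this thin coverage in the imbalance was not tested.

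SNPs within a gene mostly lay on the same side. In 105 genes some SNP had at least 10 counts in E15.10, and in 96 of these every such SNP lay on the side of the gene. All such SNPs were past the limit in 40 genes. Of 65 genes with 3 or more such SNPs, they were all past the limit in 18. The side of a gene is that of the sum of its SNPs, and the genes were chosen by this sum. Agreement was therefore largely fixed by the choice, most of all in genes with few such SNPs, and no such share is given for other genes. Neighbouring SNPs also share reads, so these are not separate observations.

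For copy number, the relative counts of the 107 genes were lower rather than higher. Few counts in E15.10 give a low relative count, and genes with few counts there met the rule more often. The choice itself thus favoured low values. Genes of like depth in E15.10 were not compared, so the contrasts with all eligible genes below are not evidence of copy number. Their median was -1.05 on the log2 scale, against -0.01 for all eligible genes. A relative count at least 1.5-fold lower was seen in 79 of 107 (73.8%), while 29.8% of eligible genes passed that fold. One at least 1.5-fold higher was seen in 3, while 23.9% of eligible genes passed it. These 3 were *Smok2a* (1.44 on the log2 scale), *Smok2b* (1.34) and *Gm22327* (0.62), a small nucleolar RNA gene with 35, 38 and 40 counts. The lowest were the noncoding *Gm13942* (-3.28), the prolactin-family gene *Prl7d1* (-2.69) and the receptor pseudogene *Olfr1171-ps1* (-2.60). E6.43 over E6.2 gave a median of -0.12 for the 107 genes and 0.01 for all.

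**Figure D4:**
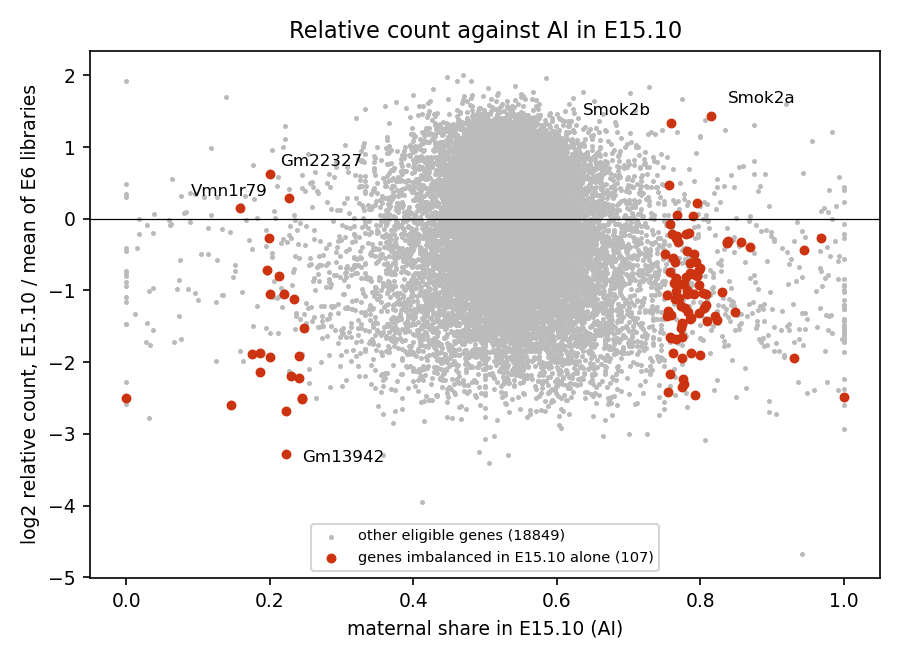
Relative count (log2, E15.10 over the mean of the E6 libraries) against AI in E15.10 for the 107 genes (red) and the other eligible genes (grey). The genes were chosen by the x axis. *Smok2a* and *Smok2b* stand at 1.44 and 1.34, and the median of the 107 genes is -1.05.

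Low GC content moved with the lower counts: the median around the SNPs was 45.6% in the 107 genes. After the GC correction the median relative count was -0.63, a count at least 1.5-fold lower was seen in 55 genes (17.5% of eligible genes) and one at least 1.5-fold higher in 8 (10.8%). The 8 comprised *Smok2a* (2.01), *Smok2b* (1.76), *Vmn1r79* (1.30), *Smim17* (1.29), *Tmem243* (1.11), *Fam98a* (0.95), *Med7* (0.83) and *Harbi1* (0.82). *Gm22327* was at 0.55, under the fold. The part of GC content and capture in the counts was not tested beyond this correction.

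The counts were also divided by allele. The allele with more counts in E15.10 had a median relative count of -0.51 (log2) and the other -2.12. All eligible genes stood at -0.01 for maternal and -0.02 for paternal counts. The lower allele was at least 1.5-fold lower in 103 genes, which held for 33.4% of eligible genes when their alleles were ordered in the same way. The higher allele was within 1.5-fold in 49 of the 103, lower in 47 and higher in 7. Among eligible genes it was at least 1.5-fold lower in 26.6% and higher in 27.4%. In the 4 remaining genes the higher allele was at least 1.5-fold higher and the lower allele within 1.5-fold, *Smok2a* and *Smok2b* among them. After the GC correction the medians were -0.01 and -1.67, the higher allele was at least 1.5-fold higher in 25 genes (15.7% of eligible genes), and the lower allele at least 1.5-fold lower in 94 (22.6%). Since the genes were chosen by the ratio of the alleles, a gap between both was fixed by the choice.

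**Figure D5:**
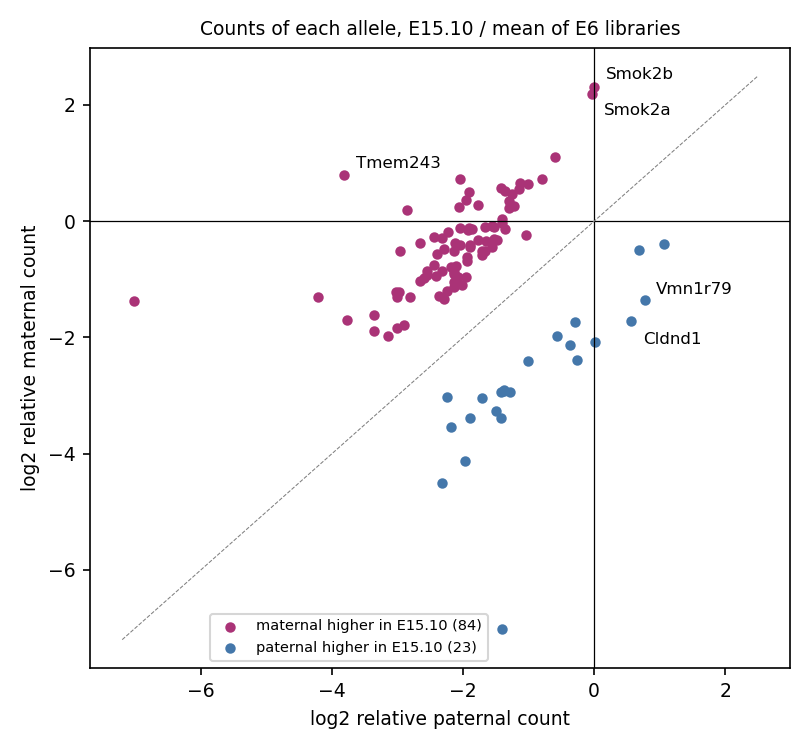
Relative maternal against relative paternal count (log2, E15.10 over the mean of the E6 libraries, pseudocount 1) for the 107 genes. Colours mark the 84 genes with AI over 0.75 and the 23 under 0.25, which the choice places on either side of the dashed diagonal. *Smok2a* and *Smok2b* lie at a paternal value near 0 and maternal values of 2.18 and 2.30.

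Several genes were imbalanced toward the paternal allele. *Cldnd1* (chr16:58727910-58734251) is a claudin-domain membrane protein gene, and *Vmn1r79* (chr7:12171279-12181533) a pheromone receptor gene of the vomeronasal organ. Both are shown at their best-covered SNPs, in coding exons and in the same format. The reason is that, as counted, their paternal counts were higher and their maternal counts lower.
*Cldnd1*, chr16:58729572-58729632: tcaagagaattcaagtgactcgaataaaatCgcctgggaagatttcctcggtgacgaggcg
*Vmn1r79*, chr7:12176831-12176891: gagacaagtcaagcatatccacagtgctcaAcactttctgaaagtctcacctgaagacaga
At these SNPs *Cldnd1* had 99 maternal and 46 paternal counts in the B cells, 58 and 49 in E6.43, and 14 and 55 for the clone E15.10. *Vmn1r79* had 65 and 73, 22 and 59, and 11 and 77. In *Cldnd1* as a whole AI was 0.570 of 741 counts, 0.528 of 447 and 0.199 of 331 (0.160 to 0.246), and all 7 SNPs with at least 10 counts lay at 0.118 to 0.231 in E15.10. Its maternal counts were lower (-1.72 on the log2 scale), its paternal counts higher (0.56) and its total -0.27. No SNP context of *Cldnd1* was found elsewhere in the genome.

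In *Vmn1r79* AI was 0.514 of 405 counts, 0.397 of 237 and 0.159 of 239 (0.118 to 0.211). Its relative counts as counted were -1.35 for the maternal and 0.78 for the paternal allele, with a total of 0.15. After the GC correction they were -0.22 and 1.97, with a total of 1.30, so the maternal counts were then within 1.5-fold. All 3 SNPs of *Vmn1r79* had their context elsewhere. On chromosome 4, the receptor gene *Vmn2r-ps159* and *Vmn2r125*, annotated as an unprocessed pseudogene, lie within 1 Mb of each other. They had AI of 0.196 of 694 and 0.234 of 137 counts in E15.10. In E6.2 they stood at 0.363 and 0.584, and in E6.43 at 0.439 and 0.567. Vomeronasal receptor genes, most of which belong to large tandem families, numbered 8 of the 107, and 7 of these were on the paternal side. They were 3.15% of the 254 eligible ones, against 0.564% of all eligible genes.

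Toward the maternal allele, *Tmem243*, a small membrane protein gene named after its values were seen, had AI of 0.452 of 177 counts, 0.476 of 63 and 0.969 of 64 (0.893 to 0.991). Its 2 paternal counts in E15.10 compare with a maternal relative count of 0.80 on the log2 scale and a paternal one of -3.82. No SNP of *Tmem243* had more than 19 counts in E15.10, so the 64 are not separate reads and the interval is too narrow. Over SNPs 300 bp apart its AI was 0.463, 0.571 and 0.947, the last from 19 counts. *Harbi1*, derived from a transposase, had AI of 0.588, 0.512 and 0.838, the last from 160 counts with 70 at its best SNP. *Xpa*, a nucleotide excision repair gene, had AI of 0.504, 0.607 and 0.869, the last from 107 counts. Only 1 of its SNPs had at least 10 counts in E15.10, and that SNP was not past the limit. Over SNPs 300 bp apart AI was 0.550, 0.690 and 0.674, so E15.10 did not lie above E6.43. In ENSMUSG00000095811 all 44 counts in E15.10 were maternal, against AI of 0.567 of 386 counts and 0.394 of 320. In *Olfr626-ps1*, a receptor pseudogene, none of 44 counts was maternal, against 0.442 of 394 and 0.587 of 322. Were these 44 separate reads, a count of 0 would allow a share of up to 0.0682 (3 counts). They are not, since no SNP of *Olfr626-ps1* had more than 3 counts and none of ENSMUSG00000095811 more than 16, so the true limit is higher. The 31-base context lay elsewhere in the genome for 5 of 20 SNPs of *Olfr626-ps1*. For ENSMUSG00000095811 it did for all 10 SNPs with counts, also over the longest context, and its SNPs without counts were not searched.

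The other coding genes with most counts in E15.10 lay between 0.751 and 0.809. For skin and its barrier they included *Tmem79* (0.767 of 206 counts), the cornified envelope gene *Lce3c* (0.751 of 193), *Lipn*, a lipase gene (0.797 of 158), and *Calml3*, which encodes a calmodulin-like protein of epithelia (0.758 of 186). Regulators of transcription were *Tle4*, a Groucho-family corepressor (0.774 of 124), and *Myf5*, a muscle determination factor (0.764 of 89). *Casp12* encodes an inflammatory caspase (0.758 of 161), *Stradb* a pseudokinase (0.754 of 122) and *Arl10* a small GTPase-like protein (0.756 of 119). *Spag11a*, an epididymal defensin-like gene (0.774 of 159), *Khdc1b*, an oocyte-expressed KH-domain gene (0.809 of 141), *Kcnrg* (0.765 of 183), *N4bp2l1* (0.793 of 150) and *Olfml1* (0.790 of 186) complete them. Of these 14, *Arl10* had the highest relative count (0.47 on the log2 scale) and *Casp12* the lowest (-2.17). The AI listed for them, and for the families below, is that of E15.10. Their AI in the E6 libraries (E6.2 first) differed between genes. *Lce3c* (0.617 and 0.647) and *Tle4* (0.619 and 0.630) were already toward the maternal allele there, and *Khdc1b* (0.480 and 0.443) was not. The best-covered gene models without a gene name were *Gm10037* (0.790 of 568) and *Gm9776* (0.784 of 357).

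Odorant receptor genes, expressed in the olfactory epithelium as clustered families, numbered 11 of 753 eligible ones (1.46%), 8 of them on the maternal side. *Olfr547* (0.808 of 312), *Olfr38* (0.755 of 253), *Olfr617* (0.755 of 241), *Olfr916* (0.809 of 178), *Olfr25* (0.793 of 135) and *Olfr702* (0.798 of 114) were maternal, and *Olfr635* (0.230 of 61) was paternal. The median relative count was -1.67 in the 11 and -1.38 in all 753, on the log2 scale. For vomeronasal receptors these were -1.50 in the 8 and -1.55 in all 254. Defensins gave 3 of 41 (7.32%), namely *Defa22* (0.775 of 89), *Defb15* (0.759 of 83) and the pseudogene *Defa-ps4* (0.240 of 100). *Smok* kinases gave 2 of 6 (33.3%). Zinc finger genes gave 2 of 336 (0.595%), near the 0.564% of all eligible genes. The eligible histone, MHC, cytochrome and ribosomal protein genes gave none of 40, 37, 106 and 88. These families are too small for none to be told apart from that share.

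Antigen receptor segments numbered 10 of 272 (3.68%, against 0.564% of all eligible genes). As T and B cells mature they join some of these segments and cut out the DNA between. The T cell receptor segments were *Trbv17* (0.821 of 195 counts), *Trbv30* (0.931 of 72), *Trav4-2* (0.780 of 223), *Trav6-7-dv9* (0.773 of 365) and *Traj53* (0.787 of 47). The immunoglobulin segments were *Igkv17-127* (0.796 of 49), *Igkv9-120* (0.778 of 401), *Igkv4-62* (0.775 of 151), *Ighv7-4* (0.771 of 109) and *Ighv1-55* (0.247 of 85). In E6.2 and E6.43, *Trav6-7-dv9* (0.614 and 0.645) and *Igkv9-120* (0.631 and 0.638) were already toward the maternal allele. *Ighv1-55* stood at 0.451 and 0.496 there. As a check of the cell types, the 66 eligible T cell receptor alpha and delta segments held 3469 CPM in the B cells, and 2008 (E6.43) and 1164 (E15.10) in thymocytes. The 25 beta and gamma segments held 936, 582 and 296. The 179 immunoglobulin segments held 11374, 11890 and 5210, so E15.10 was lower in these as well, which T cells leave largely unrearranged. Among them, the 85 heavy V segments held 5422, 6205 and 2290, and the 80 kappa V segments 5070, 4802 and 1766. Compared with E6.43, the B cells were thus lower in heavy V segments but not in kappa V segments. *Trav6-7-dv9* had 163 CPM in the B cells and 44.4 (E6.43) and 35.96 (E15.10) in thymocytes, and *Trbv30* had 43.6, 11.02 and 7.09. The T cell receptor segments were thus lower in both thymocyte libraries than in the B cells.

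Of the 107 genes, 43 had another of them within 1 Mb, in 16 groups of at most 5 genes. No such share was computed for other genes. The groups included *Trbv17* to *Olfr38* on chromosome 6, *Olfr617* to *Olfr635* and ENSMUSG00000095811 to *Olfml1* on chromosome 7, *Defa-ps4* to *Gm15346* on chromosome 8, *Olfr25* to *Olfr916* with ENSMUSG00000063732 between them on chromosome 9, *Ighv7-4* to *Ighv1-55* with ENSMUSG00000095120 on chromosome 12, and *Trav4-2* to *Traj53* on chromosome 14. Directions were mixed within 4 of these 7, and *Serpinb3a* (0.244) and *Serpinb3d* (0.758), next to each other on chromosome 1, were opposite. Of the 202 nearest eligible neighbours that were not among the 107, 16 (7.92%) had AI under 0.25 or over 0.75 in E15.10, against 3.08% of eligible genes. The median AI of the 202 was 0.567. Summed over eligible genes within 1 Mb that were not among the 107, AI ran from 0.494 to 0.685. None of these sums was in the imbalanced range. They rest on 1 to 110 genes and weigh deeply covered genes most, so they cannot exclude shorter imbalanced stretches. Such a run can lie within the distance, as do *Smok2a*, *Smok2b*, *Tcp10c* and *Gm25730*, each over 0.75 in E15.10.

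A SNP whose 31 reference bases lie elsewhere in the genome was present in 33 of the 107 genes (30.8%) and in 20.1% of eligible genes. With any base at the SNP these were 46 (42.99%) and 25.3%. Gene models coding for protein made up 70 of the 107, against 17012 of the 18956 eligible genes, so coding genes were a smaller part of the 107. Unprocessed pseudogenes were 7 of the 107 and 254 of the eligible genes. No entry in the annotation used was found for 5 and 373. Under the same rule with libraries exchanged, 32 genes were imbalanced in E6.43 alone and 12 in E6.2 alone. The median relative count, each against the mean of the other libraries, was -0.15 in the 32 genes and -0.76 in the 12, and the highest was 0.50 (*Csn1s1*) and 0.02 (*Adh1*), so neither list held a gene with a relative count 1.5-fold higher. E15.10 was the shallowest library, and the 3 lists were not tested against each other.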

How the data were processed

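Exome libraries of 3 mice were used, 1 per animal. The authors deposited, per library, unnormalized counts of maternal and paternal reads for each gene and SNP, made with the ASEReadCounter* pipeline. The submitters' processing notes name STAR 2.5.4a, cutadapt 1.14, Trim Galore, SAMtools, GATK and GRCm38. For RNA-seq the methods describe this pipeline as keeping only reads with a unique alignment, and for the exome they name the pipeline without its settings. Duplicate removal is not given in the sources used here. Gene counts were the sums of SNP counts, so a fragment over several SNPs is counted repeatedly. A deposited series table with the fraction AI for genes of at least 90 counts served as an alternative. Its intervals, p-values and calls were not used.

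AI, shares of eligible counts and log2 relative counts (pseudocount 1 for alleles) were computed with Python 3.11.15, numpy 2.4.6 and pandas 2.3.3. GC content was taken 150 bases on each side of a SNP and corrected in 20 bins. SNP contexts of 31 bases, and 2 longer ones, were sought in GRCm38 on both strands, and transcripts were aligned with MAFFT 7.526. SNP positions were 1-based. Names and biotypes came from GENCODE M21, and sequences from GRCm38.p6. Scripts were tested on simulated data. The genes, lists and rules were chosen with earlier results of these data known. Genes named were the 30 coding genes and the 8 of any kind with most counts, the 3 highest and lowest in relative count, the 3 on either side of each limit, and the first, last and 3 deepest genes of groups of at least 3 within 1 Mb. Any other gene was named after its values were seen.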

Additional observations from a re-analysis of the deposited data

How the results depend on the processing

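The number of genes depended on the rule. It was 195 with a minimum of 10 counts, 44 with 90 (also from the deposited series table), 27 with limits of 0.2 and 0.8, 61 with a balanced range of 0.4 to 0.6, 69 with SNPs at least 300 bp apart and 202 by the median of SNPs with at least 10 counts. A minimum of 50 gave 75, and processed pseudogenes brought it to 138. By the SNP with most counts alone, chosen after the data were seen, it was 139, of which 33 were among the 107. The GC correction moved the median relative count to -0.63, the genes 1.5-fold higher to 8, and the medians of the higher and lower allele to -0.0107 and -1.67. A pseudocount of 5 moved the lower allele to -1.88. The longest context gave 14 genes with a match elsewhere, and a distance of 0.1 Mb gave 14 genes with another nearby. No median changed sign. Scaling by the median ratio, a comparison with either E6 library alone, or leaving out antigen receptor segments (chosen after the data were seen) gave medians of -0.95 to -1.10 and 69 to 80 genes 1.5-fold lower. No paired analysis was possible because each group holds 1 library. Depth in E15.10 limits most genes other than *Smok2a* and *Smok2b*.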

Other observations

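Processed pseudogenes, which the rule leaves out, gave 31 genes imbalanced in E15.10 alone of 1362 with the same counts (2.28%). The 3 with most counts lay on different chromosomes. On chromosome 4, *Gm11839* had AI of 0.446 (1660 counts) and 0.375 (1271) in the E6 libraries, E6.2 first, and 0.240 (947) in E15.10. On chromosome 9, *Gm6166* had AI of 0.452 (478), 0.426 (366) and 0.956 (472), with a relative count of 0.70 on the log2 scale. On chromosome 12, *Gm4294* had AI of 0.473 (823), 0.419 (621) and 0.0877 (422), with a relative count of -0.24.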
